A study of Homo sapiens with 6 samples.

Results

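The type I interferon response genes described here were 47 genes of the 60675 in the deposited table, chosen by gene symbol from a list of interferon-stimulated genes, with no measured value in the rule. All 47 symbols were present. RNA was measured in SUM159, an established human triple-negative breast cancer cell line, in 3 libraries labelled control and carrying the DAPK3 WT genotype, and 3 libraries labelled DAPK3 KO. The study asked which genes change when DAPK3 is knocked out; its product is a kinase related to DAPK1 and known for phosphorylating myosin light chain. All KO libraries came from 1 knockout line, number 3, so an effect of the knockout and a property of that line cannot be told apart. Every culture was grown in Ham's F-12 medium with hydrocortisone (1 μg/mL), insulin (5 μg/mL), HEPES (10 mM) and fetal bovine serum (5%), and no label records added interferon, virus or nucleic acid. The libraries are called control R1, R2 and R3 and KO R1, R2 and R3, and values for each group are listed in that order. Levels are CPM, the count of a gene scaled to a library total of 1000000 counts, with library totals adjusted by the trimmed mean of M-values method in edgeR. Whether libraries of 1 label were separate cultures is not stated, so each p-value is set against the spread of these libraries alone, and that spread may be technical. In RNA from a whole culture, a change in RNA per cell and a change in the share of expressing cells cannot be told apart.

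As background, type I interferons bind a receptor of IFNAR1 and IFNAR2 chains, whose kinases JAK1 and TYK2 phosphorylate STAT2. STAT2 and IRF9 act in a complex that binds the interferon-stimulated response element, a pair of GAAA sites separated by a short spacer, at the promoters of the response genes. The products block viral entry, degrade or mask foreign RNA, attach the ubiquitin-like protein ISG15 to other proteins, and attract lymphocytes. A low tonic level of these genes is common in tumour cells.

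Total counts were 16312184 to 22970823 per library, and 0 counts in a library allowed a level of up to 0.13 to 0.186 CPM, counting error only. DAPK3 RNA was 26.2, 10.5 and 26.1 CPM in the control libraries and 13.1, 27.2 and 11.2 CPM in the KO libraries. The library labelled control R2 therefore had the lowest DAPK3 level of the 6 and the library labelled KO R2 the highest, each against its label, and no library lacked DAPK3 RNA. In order of rising DAPK3 RNA the libraries were control R2, KO R3, KO R1, control R3, control R1 and KO R2. As labelled, DAPK3 did not pass the test (log2 fold change -0.29, edgeR adjusted p = 0.880). Calls are given for the labels as deposited and without both R2 libraries, and nothing was relabelled; whether the labels of those libraries were exchanged was not tested. Both were set aside for their DAPK3 level, so the lower DAPK3 RNA of KO in the other 4 libraries (log2 fold change -1.13) follows from that choice and is given with no test. The choice was made with earlier results of these data known. The p-values of all genes without the R2 libraries are therefore not independent evidence. The line's markers VIM (1425 to 3584 CPM) and CD44 (304 to 526 CPM) were abundant. PGR had 0 counts in all 6 libraries, EPCAM and CDH1 were at or below 0.0503 CPM, ESR1 at or below 0.478 CPM, ERBB2 at 52.2 to 97.7 CPM, GATA3 at 3.68 to 10.4 CPM and FOXA1 at 0.866 to 2.77 CPM.

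Promoter windows of 37 of the 47 members were matched by symbol in RefSeq (GRCh38.p14), and the 250 bases before each RefSeq start were searched for GAAANNGAAA and its reverse complement TTTCNNTTTC, the 2-base spacing of the interferon-stimulated response element. The motif was in 22 of the 37 windows (59.5%), against 839 of 27305 (3.07%) for all genes with a window. Where a gene had several windows the first was used; counting any window, 25 of 37 members (67.6%) and 3.71% of all genes held a match. A match is a match of letters, not a measured binding site. The 60-base stretches below are written 5′ to 3′ on the strand of the gene, with the matches in capitals; overlapping matches form 1 longer run of capitals. The first 6 belong to members that were higher in KO without the R2 libraries, EPSTI1 and IFI27 to members that were lower, and the last 4 to members not called; IFIT1, IFIT3 and IFIT5 are shown as neighbours with fold changes of opposite sign. In GENCODE 29 the IFI27 stretch lies in an intron of a longer gene model, and those of IFIT1, IFIT3 and EPSTI1 run a few bases into the first exon; ISG15 and DDX60L stretches touch an exon of longer models, and the other 6 lie upstream of the gene.
ISG15 (chr1:1013365-1013424, plus strand): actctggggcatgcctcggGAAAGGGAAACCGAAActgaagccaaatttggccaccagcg
HERC5 (chr4:88457020-88457079, plus strand): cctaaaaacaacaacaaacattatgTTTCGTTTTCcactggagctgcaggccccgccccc
IFIT1 (chr10:89392495-89392554, plus strand): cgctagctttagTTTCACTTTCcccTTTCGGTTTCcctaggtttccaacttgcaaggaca
IFIT3 (chr10:89327850-89327909, plus strand): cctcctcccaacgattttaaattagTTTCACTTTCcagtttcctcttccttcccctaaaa
IFI44 (chr1:78649729-78649788, plus strand): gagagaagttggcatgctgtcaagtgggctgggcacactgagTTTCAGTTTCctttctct
CXCL10 (chr4:76023684-76023743, minus strand): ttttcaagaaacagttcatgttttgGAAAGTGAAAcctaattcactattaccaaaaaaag
EPSTI1 (chr13:42992257-42992316, minus strand): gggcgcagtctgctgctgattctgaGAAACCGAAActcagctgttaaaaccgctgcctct
IFI27 (chr14:94110616-94110675, plus strand): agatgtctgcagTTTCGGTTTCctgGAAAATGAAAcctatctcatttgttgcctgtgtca
IFIT5 (chr10:89414508-89414567, plus strand): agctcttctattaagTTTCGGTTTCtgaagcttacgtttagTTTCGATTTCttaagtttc
DDX60L (chr4:168480508-168480567, minus strand): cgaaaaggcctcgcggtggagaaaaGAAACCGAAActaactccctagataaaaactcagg
BST2 (chr19:17405720-17405779, minus strand): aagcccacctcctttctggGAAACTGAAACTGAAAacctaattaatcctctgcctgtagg
SAMD9 (chr7:93118081-93118140, minus strand): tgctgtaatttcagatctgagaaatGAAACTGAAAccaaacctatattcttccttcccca

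The motif was present among members called in either direction and among those not called. It was in 10 of 14 windows of members called higher without the R2 libraries (71.4%), 3 of 6 of those called lower (50%) and 9 of 16 of those not called (56.2%), and it was not in the window of CMPK2, which was not tested. The stretch of EPSTI1, which was lower, holds GAAACCGAAA, as does that of DDX60L, which was not called, and ISG15, which was higher, holds the same letters within its longer run. The windows of XAF1 and of MX1 held no match, which says only that these letters were absent from that window.

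Per kilobase of exon, the highest levels among the members were those of the small membrane proteins that block viral entry or release. IFITM3 lay at 193 to 263 CPM per kb over the 6 libraries and BST2, also called tetherin, at 101 to 165. IFITM1 followed at 30.6 to 46.6 and IFITM2 at 15.6 to 50.2 CPM per kb. The ranges of IFITM3 and BST2 did not overlap, nor did that of BST2 overlap IFITM1, whereas IFITM1 and IFITM2 could not be ordered. ISG15 ranged from 2.75 to 18.96 CPM per kb and OASL from 0.792 to 28.0, so their place in the order depended on the library. The lowest by the median of the 6 libraries were MX2 (0.00948 to 0.0424 CPM per kb) and CMPK2 (0.0114 to 0.156), the 2 members that did not pass the filter on low counts. MX2, a GTPase found at the nuclear pore, had 8, 4 and 11 counts in the control libraries and 7, 2 and 4 in KO. CMPK2, a mitochondrial nucleotide kinase, had 1, 14 and 2 counts in control and 4, 1 and 15 in KO.

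With the libraries compared as labelled, 3 against 3, none of the 45 tested members was called at an edgeR adjusted p under 0.05, and none of the 14613 genes tested was (0%). The lowest adjusted p of any gene was 0.635, and 1124 genes (7.69%) had an unadjusted p under 0.05. DESeq2 called 124 genes and 0 members. By unadjusted p, 0 members were higher and 3 were lower under 0.05, and these 3 were also the members whose KO libraries all lay below the controls (6.86% of genes were so ordered). No member had all KO libraries above all controls (6.97% of genes). UBA7, the enzyme that activates ISG15, had 16.7, 14.7 and 15.4 CPM in the controls and 9.89, 10.3 and 11.7 CPM in KO (log2 fold change -0.56, unadjusted p = 0.0101). IFITM1 had 43.9, 50.3 and 42.6 CPM in the controls and 35.9, 33.1 and 36.6 CPM in KO (-0.37, unadjusted p = 0.0212). STAT2 had 61.4, 51.7 and 74.7 CPM in the controls and 44.7, 51.1 and 42.1 CPM in KO (-0.45, unadjusted p = 0.0345). For these 3 genes the edgeR adjusted p was 0.635. The median log2 fold change of the 45 tested members was 0.03, beside -0.00034 over all genes tested. Among the 27 members called without the R2 libraries, as given below, the log2 fold change by label ran from -1.08 for IFI27 to 0.74 for ISG15, with edgeR adjusted p from 0.635 to 0.992.

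The spread inside each label was large for many members. IFIT2, which binds viral RNA and limits its translation, had 22.7 ± 34.7 CPM (mean ± SD, n = 3) in control and 31.8 ± 27.7 in KO. OASL, a synthetase-like protein that binds RNA sensors, had 34.8 ± 53.9 CPM in the controls and 53.3 ± 45.1 CPM in KO. XAF1, an antagonist of the apoptosis inhibitor XIAP, had 6.74 ± 5.56 CPM in the controls and 7.67 ± 12.4 CPM in KO. For each of these genes control R2 lay nearer to KO R1 and R3 than to the other controls, and KO R2 nearer to control R1 and R3. By contrast IFITM3 had 300.3 ± 48.6 CPM in the controls and 296 ± 2.38 CPM in KO.

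**Figure D1:**
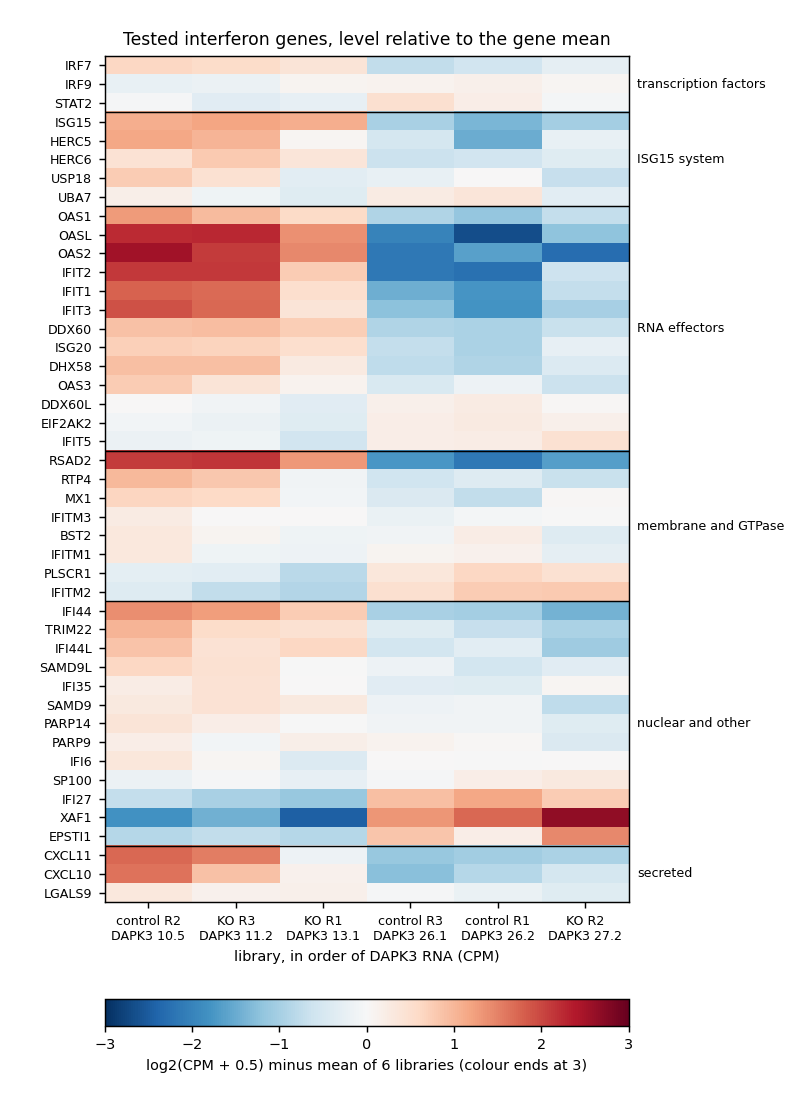
Level of the 45 tested members in each library, as log2(CPM + 0.5) minus the mean of the 6 libraries for that gene (colour, ending at 3). Columns are libraries in order of DAPK3 RNA (CPM under each name), rows are genes grouped by role; 26 genes are higher in all of the left 3 columns than in any of the right 3, and 8 are lower.

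Ordered by DAPK3 RNA instead of label, and with no test since the order is a measured one, 26 of the 45 tested members were higher in control R2, KO R1 and KO R3 than in any of the other 3 libraries, where 21.3% of the 14613 genes were. A further 8 members (IFIT5, EIF2AK2, DDX60L, IFITM2, PLSCR1, XAF1, EPSTI1 and IFI27) were lower in all 3 of those libraries, where 22.2% of genes were. The remaining 11 overlapped. The map of the 45 members by library shows both directions side by side, with IFIT2, OAS2, OASL and RSAD2 toward one extreme and XAF1 toward the other. Of the 13 members that bind, sense or degrade RNA, 10 were among the 26 and 3 among the 8.

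Without both R2 libraries, control R1 and R3 against KO R1 and R3, 20 of the 45 tested members rose in KO (44.4%) where 12.4% of the 14846 genes tested did, and 7 fell (15.6%) where 15.5% of genes did. The share that fell was thus near the background. Of these, 19 rose and 5 fell by at least 2-fold, counts not made over all genes. The median log2 fold change was 0.59 over the 45 members and -0.02 over all genes tested. The other 18 members were not called, 7 of them at an unadjusted p under 0.05 (UBA7, IFIT5, DDX60L, MX1, RTP4, SAMD9 and IFI35). Since this comparison rests on 2 libraries for each label, leaving out 1 of them left a lone library assumed to vary like the pair; 15 to 23 members were then called higher and 4 to 8 lower, the 4 without control R3. In the gene-by-gene results that follow, the first value in parentheses is the log2 fold change of this comparison.

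**Figure D2:**
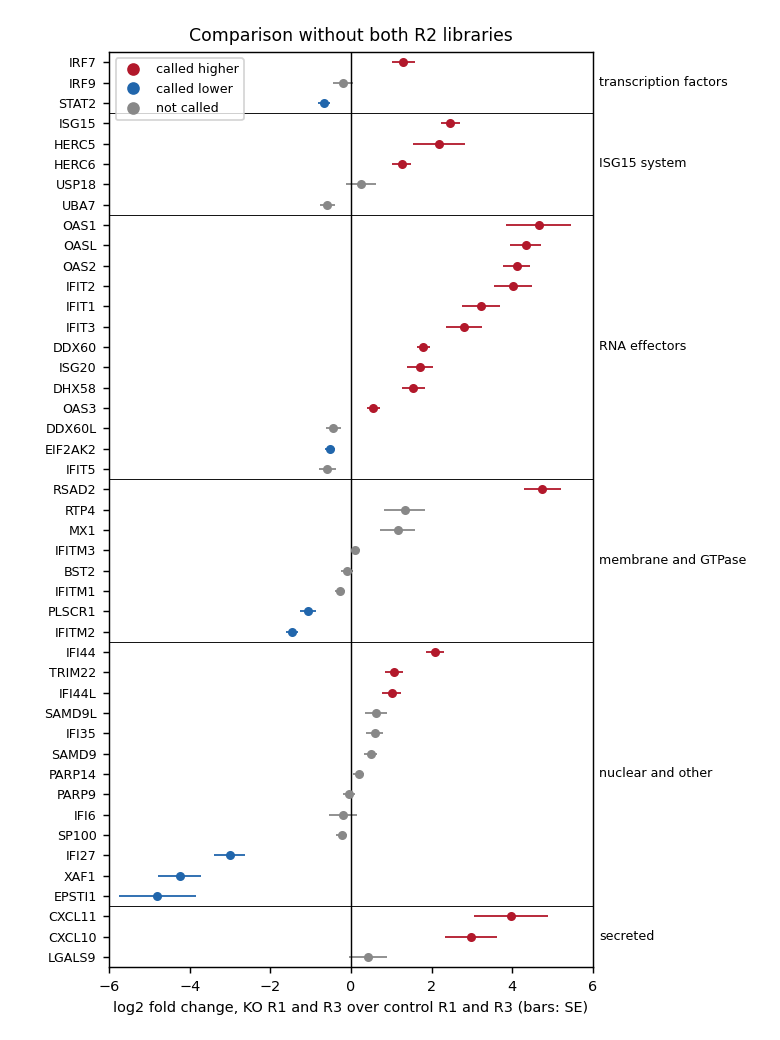
Log2 fold change of KO R1 and R3 over control R1 and R3 for the 45 tested members, grouped by role, with bars of 1 SE. Red points are the 20 members called higher at an edgeR adjusted p under 0.05, blue points the 7 called lower, grey points the 18 not called.

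Among the transcription factors of the response, IRF7 rose, STAT2 fell and IRF9 was not called. IRF7, which drives interferon genes and amplifies the response, had 2.05, 5.35 and 1.76 CPM in the controls and 4.46, 2.66 and 5.04 CPM in KO (log2 fold change without R2 1.30, SE 0.29, edgeR adjusted p = 0.0159). Control R2 was the highest of the 6 libraries for IRF7, and KO R2 lay nearer the other controls. For STAT2, whose values are given above, KO R1 and R3 were the lowest libraries and control R1 and R3 the highest, with both R2 libraries between them (-0.66, SE 0.15, edgeR adjusted p = 0.0146). IRF9, the partner of STAT2 in the complex, stayed within 4.21 to 5.67 CPM in all 6 libraries (-0.21, edgeR adjusted p = 0.581). Of the 75-base words in IRF9 transcripts, 40.9% also occurred in an overlapping gene on the same strand, so its counts could be divided between them. Without control R3 the adjusted p was 0.0663 for IRF7 and 0.0668 for STAT2.

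In the ISG15 conjugation system, ISG15, HERC5 and HERC6 rose, and UBA7 and USP18 were not called. ISG15 itself had 2.59, 16.5 and 3.57 CPM in the controls and 16.5, 3.46 and 17.8 CPM in KO (2.46, SE 0.24, edgeR adjusted p = 0.000575). The 3 high libraries of ISG15 were alike, at 16.5 to 17.8 CPM, and the 3 low ones were at 2.59 to 3.57. HERC6, a ligase related to HERC5, had 6.30, 13.1 and 5.94 CPM in the controls and 12.5, 7.42 and 17.1 CPM in KO (1.26, SE 0.23, edgeR adjusted p = 0.00729). HERC5, the main ligase for ISG15 in human cells, had 0.244, 4.16 and 0.956 CPM in the controls and 1.70, 1.30 and 3.78 CPM in KO (2.18, SE 0.65, edgeR adjusted p = 0.0422). The HERC5 call rested on few counts, 5 in control R1: its adjusted p was 0.129 without control R1 (log2 fold change 1.51) and 0.149 without KO R3 (1.47), and its log2 fold change was 3.45 without control R3. USP18, which removes ISG15 and dampens receptor signalling, had 3.03, 5.45 and 2.47 CPM in the controls and 2.29, 1.67 and 4.25 CPM in KO (0.25, SE 0.38, edgeR adjusted p = 0.668). KO R1 was thus below control R1 and R3 for USP18, unlike ISG15. USP18 shares 18.3% of its 75-base words with USP41, a close copy, so its counts are uncertain. UBA7, lower in each KO library by label, missed the threshold without the R2 libraries (-0.59, SE 0.19, edgeR adjusted p = 0.0528).

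The 13 members that bind, sense or degrade RNA included 10 that rose, while EIF2AK2 fell and IFIT5 and DDX60L were not called. The median log2 fold change of the 13 was 1.79. Some IFIT proteins bind the ends of foreign RNA and limit its translation. IFIT2 had 2.54, 62.8 and 2.77 CPM in the controls and 24.0, 8.91 and 62.6 CPM in KO (4.02, SE 0.47, edgeR adjusted p = 0.00119). IFIT3 had 3.71, 54.1 and 5.64 CPM in the controls and 18.5, 6.74 and 47.1 CPM in KO (2.80, SE 0.45, edgeR adjusted p = 0.00444). IFIT1 had 1.17, 19.2 and 1.56 CPM in the controls and 7.60, 2.97 and 18.1 CPM in KO (3.22, SE 0.46, edgeR adjusted p = 0.00283). In all of IFIT1, IFIT2 and IFIT3 control R2 and KO R3 were the highest, KO R1 followed and KO R2 stood above control R1 and R3. Their log2 fold changes depended on KO R3: without it they were 2.45, 3.15 and 1.96 for IFIT1, IFIT2 and IFIT3, and each stayed called. IFIT5 ran the other way, with 19.8, 14.7 and 19.4 CPM in the controls and 11.1, 23.3 and 15.2 CPM in KO (-0.58, SE 0.20, edgeR adjusted p = 0.070).

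The oligoadenylate synthetases OAS1, OAS2 and OAS3, but not the synthetase-like OASL, make the messenger that activates the nuclease RNase L. OAS2 had 1.56, 36.2 and 0.956 CPM in the controls and 17.0, 0.804 and 27.0 CPM in KO (4.11, SE 0.35, edgeR adjusted p = 0.000303). OASL had 2.79, 97.1 and 4.68 CPM in the controls and 52.9, 8.41 and 98.5 CPM in KO (4.33, SE 0.37, edgeR adjusted p = 0.000332). For both genes every library of the lower-DAPK3 set stood above every other library. OAS3 changed least, with 46.0, 87.4 and 37.4 CPM in the controls and 55.4, 32.5 and 67.8 CPM in KO (0.55, SE 0.16, edgeR adjusted p = 0.0416). The OAS3 adjusted p was 0.177 without control R3, 0.160 without KO R3 and 0.0908 with the replicate number as a block. OAS1 was close to absent where it was low, with 0, 46 and 2 counts in control and 22, 3 and 38 in KO. Over control R1 and R3 (2 counts) and KO R1 and R3 (60 counts) the OAS1 level was 28.9 times higher in KO (95% exact counting interval 7.66 to 244, edgeR adjusted p = 0.00597); the fitted log2 fold change of 4.66 depends on the prior count. It was 3.73 without control R1 and 7.88 without control R3.

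The remaining RNA-directed members were the exonuclease ISG20, the helicases DDX60, DDX60L and DHX58, and the kinase EIF2AK2. DDX60, a helicase linked to cytosolic RNA sensing, had 11.2, 40.8 and 11.5 CPM in the controls and 37.0, 13.6 and 42.5 CPM in KO (1.79, SE 0.16, edgeR adjusted p = 0.000399). DHX58, also called LGP2, had 3.91, 14.9 and 4.33 CPM in the controls and 9.35, 5.63 and 14.8 CPM in KO (1.54, SE 0.29, edgeR adjusted p = 0.00760). ISG20 had 1.12, 4.64 and 1.41 CPM in the controls and 3.93, 2.10 and 4.43 CPM in KO (1.71, SE 0.33, edgeR adjusted p = 0.00867). In these 3 genes the groups by label overlapped and the groups by DAPK3 RNA did not. EIF2AK2, the RNA-activated kinase PKR that halts translation, had 80.5, 62.6 and 76.8 CPM in the controls and 51.8, 74.5 and 59.2 CPM in KO (-0.52, SE 0.13, edgeR adjusted p = 0.0231). Of the 13 it alone passed the test as lower, and the call was lost in 4 alternatives: the adjusted p was 0.0957 without control R1, 0.0532 without control R3, 0.0989 without KO R1 and 0.0677 with the replicate block. DDX60L, the neighbour and paralog of DDX60, had 15.5, 13 and 14.3 CPM in the controls and 10.2, 13.2 and 12 CPM in KO (-0.44, SE 0.19, edgeR adjusted p = 0.124).

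**Figure D3:**
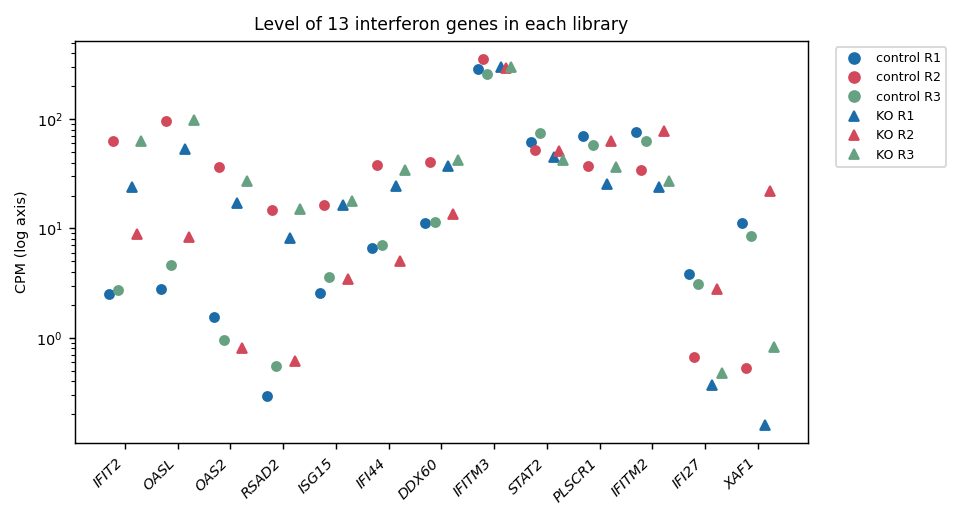
CPM (log axis) of 13 members in each library; circles are control, triangles KO, and colour gives the library number R1, R2 or R3. From IFIT2 to DDX60 control R2, KO R1 and KO R3 lie above the rest, IFITM3 stays at 260 to 354, and from PLSCR1 to XAF1 the same libraries lie below.

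Of the 10 GTPases and membrane-associated members, RSAD2 rose, IFITM2 and PLSCR1 fell, 5 were not called and MX2 and CMPK2 were not tested. RSAD2, or viperin, makes a chain-terminating nucleotide, and it had 0.293, 14.6 and 0.554 CPM in the controls and 8.18, 0.618 and 14.9 CPM in KO (4.75, SE 0.47, edgeR adjusted p = 0.000576). The 3 high libraries of RSAD2 had 154 to 344 counts and the 3 low ones 6 to 11. CMPK2, head to head with RSAD2 and overlapping it by 830 bp, had 3 counts in control R1 and R3 against 19 in KO R1 and R3, a level 6.10 times higher in KO (95% exact counting interval 1.80 to 32.2), which covers counting error only. MX1, a dynamin-like GTPase, had 0.879, 3.11 and 1.21 CPM in the controls and 1.70, 1.86 and 3.00 CPM in KO (1.16, SE 0.43, edgeR adjusted p = 0.0836). RTP4, a chaperone of receptor transport, had 0.782, 2.82 and 0.604 CPM in the controls and 1.06, 0.557 and 2.43 CPM in KO (1.33, SE 0.52, edgeR adjusted p = 0.0950). Neither had more than 69 counts in any library.

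The 3 IFITM proteins, which restrict viral entry at membranes, did not move together. IFITM2 had 76.3, 34.1 and 63.0 CPM in the controls and 24.1, 77.5 and 27.0 CPM in KO (-1.46, SE 0.15, edgeR adjusted p = 0.000770). Control R2, KO R1 and KO R3 lay between 24.1 and 34.1 CPM, below the 63.0 to 77.5 CPM of the rest. IFITM3, 4.4 kb away on the opposite strand, had 287, 354 and 260 CPM in the controls and 298, 294 and 297 CPM in KO (0.11, SE 0.11, edgeR adjusted p = 0.514). IFITM1 was not called without the R2 libraries (-0.27, SE 0.13, edgeR adjusted p = 0.170). The difference between the 3 genes was not tested. Their sequences are close: 29.8% of the 75-base words of IFITM1, 24.2% of IFITM2 and 8.05% of IFITM3 occur in another gene, and the annotated IFITM2 locus contains IFITM1, so reads could be assigned to the wrong member. PLSCR1, a phospholipid scramblase with antiviral activity, had 70.2, 37.4 and 58.0 CPM in the controls and 25.6, 63.3 and 36.3 CPM in KO (-1.06, SE 0.20, edgeR adjusted p = 0.00756). BST2, which tethers budding virions, had 174, 185 and 139 CPM in the controls and 137, 113 and 157 CPM in KO (-0.10, SE 0.14, edgeR adjusted p = 0.642).

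Among the 13 nuclear, ADP-ribosylation and other members, 3 rose, 3 fell and 7 were not called. IFI44 had 6.69, 37.7 and 6.99 CPM in the controls and 24.3, 5.01 and 34.3 CPM in KO (2.09, SE 0.22, edgeR adjusted p = 0.000802). Its neighbour IFI44L had 5.03, 11.9 and 4.18 CPM in the controls and 10.1, 2.78 and 8.68 CPM in KO (1.01, SE 0.23, edgeR adjusted p = 0.0177), with an adjusted p of 0.0736 without control R3 and 0.0548 without KO R1. TRIM22, an antiviral ubiquitin ligase, had 4.98, 17.4 and 6.39 CPM in the controls and 11.6, 4.08 and 12.4 CPM in KO (1.06, SE 0.23, edgeR adjusted p = 0.0131), with an adjusted p of 0.0577 without control R1. The 7 not called were PARP9 and PARP14, which handle ADP-ribose, SP100 of the nuclear bodies, SAMD9 and SAMD9L, which restrict translation, and IFI6 and IFI35. Their log2 fold changes ran from -0.23 for SP100 to 0.62 for SAMD9L, and SAMD9 stood at the threshold (0.48, SE 0.15, edgeR adjusted p = 0.05 rounded, above the threshold before rounding). PARP14 lay at 62.3 to 105 CPM over the 6 libraries and IFI6 at 1.91 to 3.54.

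The 3 members that fell most were XAF1, EPSTI1 and IFI27. XAF1 had 11.2, 0.526 and 8.45 CPM in the controls and 0.159, 22.0 and 0.825 CPM in KO (-4.25, SE 0.53, edgeR adjusted p = 0.00152). Control R2, KO R1 and KO R3 had 3 to 19 counts of XAF1, and the other libraries 168 to 356. The log2 fold change of XAF1 was -3.56 without KO R1 and -5.91 without KO R3. XAF1 exons overlap those of PRAL, a gene on the opposite strand, by 2535 bases, and since the strand setting of the counting is not given, reads of the pair cannot be told apart. EPSTI1, first described in breast epithelium grown with stromal cells, had 11, 0 and 22 counts in control and 0, 32 and 1 in KO. Over control R1 and R3 (33 counts) against KO R1 and R3 (1 count) its level was 34.2 times higher in control (95% exact counting interval 5.73 to 1393, edgeR adjusted p = 0.0102). Its fitted log2 fold change was -4.80, -4.06 without KO R1 and -7.04 without KO R3, and depends on the prior count. IFI27, a mitochondrial protein whose RNA is used as a blood marker of interferon exposure, had 3.81, 0.669 and 3.12 CPM in the controls and 0.372, 2.78 and 0.478 CPM in KO (-3.01, SE 0.39, edgeR adjusted p = 0.00191). The 3 low libraries of IFI27 did not overlap the 3 high ones.

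The leukocyte gene PTPRC (CD45) and the monocyte gene CD14 were lower in control R2, KO R1 and KO R3 than in each of the other 3 libraries. This order is described with no test, and 22.2% of the 14613 genes tested as labelled had it. CD14, at 1 to 20 counts, was not among the genes tested. The summed level of 9 markers of blood cells was 4.30, 1.15 and 5.13 CPM in the controls and 1.33, 5.38 and 0.999 CPM in KO, and PTPRC gave most of it in the 3 libraries with the higher sums, at 2.98, 0.0478 and 2.92 CPM in the controls and 0.106, 3.28 and 0 CPM in KO. CD14 had 0.391, 0.0478 and 0.705 CPM in the controls and 0.0531, 1.24 and 0.0868 CPM in KO. Other markers did not follow that order: HBB was at 0.342 to 1.26 CPM, highest in control R3, LYZ at 0.101 to 0.478 CPM, highest in control R2, and IL3RA at or below 0.342 CPM. LILRA4 had 0 counts in every library, CD3E was at or below 0.0489 CPM and CLEC4C, which marks the plasmacytoid dendritic cells that secrete interferon, at or below 0.0868 CPM. The libraries with more PTPRC and CD14 RNA were the 3 of higher DAPK3 RNA. The same order was that of the 8 members lower in control R2, KO R1 and KO R3. The 26 members higher in control R2, KO R1 and KO R3 ran the other way, as 21.3% of genes did. The endothelial markers PECAM1 and VWF summed to 0.434 to 1.81 CPM. The part of PTPRC, CD14 and the other markers in the results was not tested.

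Of the 3 secreted members, CXCL10 and CXCL11 rose and LGALS9 was not called. Both chemokines attract T cells through the receptor CXCR3. CXCL10 had 0.293, 3.97 and 0.101 CPM in the controls and 1.06, 0.495 and 2.13 CPM in KO (2.98, SE 0.64, edgeR adjusted p = 0.0136). CXCL11 had 0.147, 3.87 and 0.101 CPM in the controls and 0.691, 0.186 and 3.34 CPM in KO (3.97, SE 0.92, edgeR adjusted p = 0.0171). Both rested on few counts in the low libraries, 2 to 8 for CXCL10 and 2 or 3 for CXCL11. The CXCL10 adjusted p was 0.0595 without control R3 and 0.0531 without KO R3 (log2 fold change 2.37), and its log2 fold change 3.91 without control R1. The CXCL11 adjusted p was 0.0608 without control R1, 0.0591 without control R3 and 0.0966 without KO R3 (log2 fold change 2.40), and its log2 fold change 4.70 without KO R1. LGALS9, a galectin, was at 0.371 to 0.908 CPM in all 6 libraries (0.42, SE 0.46, edgeR adjusted p = 0.537).

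Control R2 and KO R2, which took no part in that comparison, were then set against each other 1 to 1, with no test. KO R2 was at least 2-fold below control R2 in 24 of the 45 tested members, where 7.4% of 14607 genes were, and at least 2-fold above in 4 (IFITM2, XAF1, EPSTI1 and IFI27), where 8.87% of genes were. The median log2 ratio was -1.01 over the members and -0.0021 over all genes. All 20 members called higher in the other 4 libraries had a log2 ratio below 0 in this pair, from -0.82 for HERC6 to -5.49 for OAS2. Of the 7 called lower, 6 were above 0 and STAT2 was at -0.01. The same counts were not made over all genes called, so they cannot be read as particular to the members. XAF1 gave 5.39, EPSTI1 3.79 (with control R2 set to the floor of 3 counts), IFI27 2.06 and IFITM2 1.19. The plot of the 2 readings against each other shows the members on a falling line, with Pearson's r of -0.945 across the 45 genes and -0.749 across 14815 genes. These correlations are across genes, which are not independent replicates. USP18, not called in the 4 libraries, gave -1.71 in the R2 pair.

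**Figure D4:**
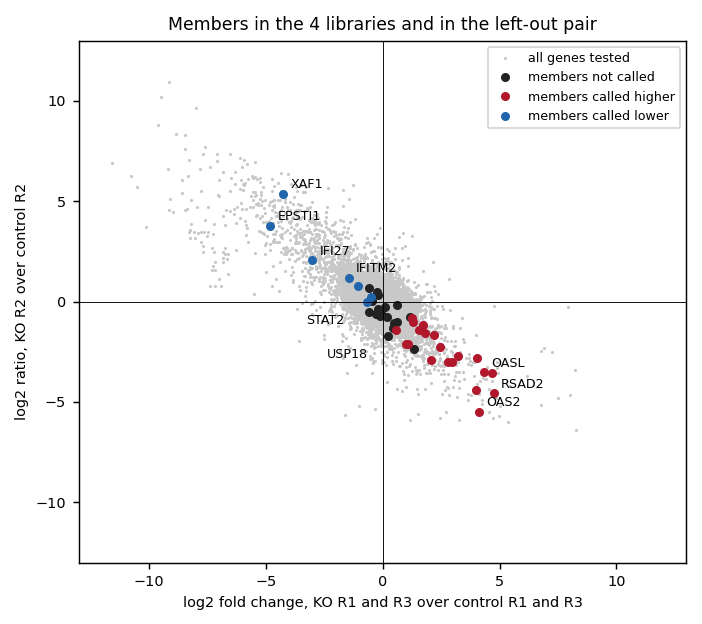
Each point is 1 gene: log2 fold change of KO R1 and R3 over control R1 and R3 (x) against the log2 ratio of KO R2 over control R2 (y). Members called higher (red) lie at the lower right, XAF1, EPSTI1, IFI27 and IFITM2 at the upper left, and grey points are all genes tested.

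The 3 libraries of lower DAPK3 RNA did not carry the 20 members called higher to the same level. Their summed level was 103, 548 and 101 CPM in the controls and 318, 110 and 504 CPM in KO. These members were chosen as higher in KO R1 and R3 than in control R1 and R3, so that gap follows from the choice. Over all 47 members the sums were 1199, 1644 and 1103 CPM in the controls and 1202, 1105 and 1466 CPM in KO. KO R1 was the lowest of control R2, KO R1 and KO R3 in 18 of the 20, where it was the lowest in 33.7% of the 1837 genes called higher. Control R2 was the lowest in 1 of the 20, where it was the lowest in 53.2% of those genes. Control R2 was the highest in 15 of the 20, a count not made over all genes. The ratio of KO R3 to KO R1 had a median of 1.5 over the 20 members and 1.02 over the 1837 genes, and it reached at least 1.5 in 10 members (50%) and in 3.81% of the genes. It was 4.84 for CXCL11 and 0.860 for IFI44L, the extremes. IFIT1, IFIT2, IFIT3, HERC5, OAS2, OASL, DHX58, RSAD2 and CXCL10 were the other 9 at or above 1.5, while ISG15, DDX60, ISG20, IRF7 and TRIM22 were nearly level in both libraries. DAPK3 RNA was 13.1 CPM in KO R1 and 11.2 in KO R3. No test was made of this spread, which is between 2 libraries of 1 label.

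**Figure D5:**
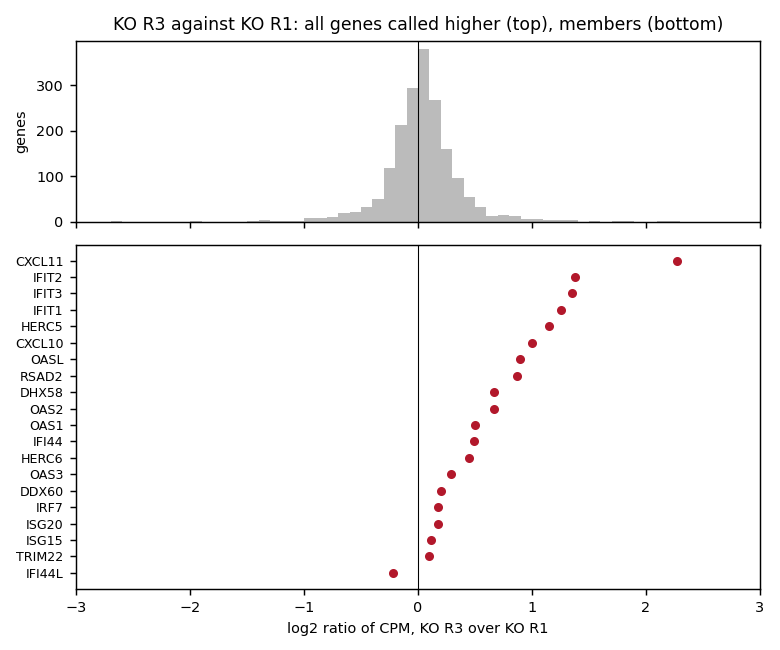
Log2 ratio of CPM in KO R3 over KO R1: histogram of all 1837 genes called higher without the R2 libraries (top) and the 20 members among them (bottom). The members run from IFI44L below 0 to CXCL11 above 2, and their median ratio is 1.5 against 1.02.

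Several members are neighbours in the genome, and neighbours moved together in some clusters and not in others. The IFIT genes lie on chromosome 10 (GRCh38, GENCODE 29), IFIT2 at chr10:89283694-89309276, IFIT3 at chr10:89327894-89340971, IFIT1 at chr10:89392546-89406486 and IFIT5 at chr10:89414586-89421001, all on the plus strand. IFIT5 begins 8.1 kb after IFIT1 ends, and it was the member of the cluster with a negative log2 fold change, which did not pass the test. The stretches printed above for IFIT1 and IFIT5 each hold a pair of TTTCNNTTTC matches. OAS1 (chr12:112906777-112933222), OAS3 (chr12:112938352-112973249) and OAS2 (chr12:112978395-113011723) lie 5.13 and 5.14 kb apart and all rose, OAS3 least. IFI44L and IFI44, 3.65 kb apart on chromosome 1, both rose, as did HERC6 and HERC5, 14.01 kb apart on chromosome 4, and CXCL10 and CXCL11, 10.18 kb apart on chromosome 4. DDX60 rose while DDX60L, 37.93 kb away, did not pass the test, and IFITM2 fell beside IFITM1 and IFITM3. The differences between neighbours were not tested. XAF1 is at chr17:6755447-6775647, EPSTI1 at chr13:42886388-42992271 and IFI27 at chr14:94104836-94116698, and no other member lies within 200 kb of them.

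The genes upstream of the response were listed separately, as 28 ligands, receptors, kinases, transcription factors and brakes. Of the 20 tested, 2 rose without the R2 libraries (10%) where 12.4% of all genes did, 2 fell (10%) where 15.5% did, and 16 were not called. Their median log2 fold change was 0.02. IFNA1, IFNB1, IFNE, IFNK, IFNL2 and IFNL3 had 0 counts in all 6 libraries, which limits each to the levels given above for a count of 0. No IFNA gene other than IFNA1 was in the list, so the others were not examined. IFNL1, a type III interferon, had 0, 6 and 0 counts in control and 1, 0 and 6 in KO. The receptor chains IFNAR1 (-0.09, edgeR adjusted p = 0.693) and IFNAR2 (-0.34, edgeR adjusted p = 0.200) were not called. JAK1 fell, with 173, 120 and 171 CPM in the controls and 135, 167 and 128 CPM in KO (-0.40, SE 0.11, edgeR adjusted p = 0.0325), and IFNGR1, a receptor chain for interferon gamma, fell as well (-0.63, SE 0.19, edgeR adjusted p = 0.0452). PTPN2 (0.86, SE 0.12, edgeR adjusted p = 0.00268) and PTPN1 (0.50, SE 0.12, edgeR adjusted p = 0.0201), phosphatases that act on the JAK and STAT proteins, rose. Of the members that act in the complex at the response element, STAT2 thus fell in the comparison in which 20 members rose, and IRF9 was not called.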

How the data were processed

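The deposited table held RSEM expected counts per gene for 6 libraries, which the authors made with RSEM and Bowtie2 on GRCh38 per the submitters' processing notes; which versions, gene annotation and strand option were used is not given in the sources used here. Of the values 9.42 to 10.6% per library were not whole, and all were rounded. Rows were matched by Ensembl ID to GENCODE 29 (57055 of 60675). Genes passing edgeR's filterByExpr were scaled by TMM (factors 0.991 to 1.02) and tested with edgeR's robust quasi-likelihood test (edgeR 4.0.16, R 4.3.3), with Benjamini-Hochberg adjustment over all genes tested and a threshold of 0.05, on all 6 libraries and without both R2 libraries; the steps were tested on simulated data. Alternatives used DESeq2 1.42.0, limma 3.58.1 (voom), other scalings, filters and thresholds. Shared sequence was measured as the share of 75-base words of a gene's GENCODE transcripts found in transcripts of another gene.

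Values in every library were given for each member called in either comparison; the rest were summarised or named beside a called neighbour or partner. The members and the gene lists were chosen with earlier results of these data known. Libraries of 1 label were not duplicates (chi-square per degree of freedom 20.5 to 85.6). No result was taken from a relabelled library. A pathway gene and a blood marker that are counted in the lists are not reported here by name.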

Additional observations from a re-analysis of the deposited data

How the results depend on the processing

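As labelled, edgeR called 0 members under every alternative run on all 6 libraries or with 1 left out, DESeq2 called 124 genes, and leaving out both R2 libraries gave 27 members and 4132 genes. Without both R2 libraries, the 27 members called kept their direction under up to 13 alternatives each, and 19 values lost the call, 17 of them with 1 library left out and 2 with the replicate block (OAS3 and EIF2AK2). At an adjusted p under 0.01, 13 members were higher, 4 lower and 1846 genes were called. Leaving out 1 library gave 15 to 23 members higher, 4 to 8 lower, a median log2 fold change of 0.40 to 0.84 and 2551 to 3629 genes; the lowest gene count came without control R1, the fewest lower members and the highest median without control R3. The causes were not tested.

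Same-numbered libraries had correlations of -0.68, -0.86 and -0.73 in their deviations from the group means. Without the R2 libraries the correlation was -0.37 for same-numbered and 0.37 for crossed libraries, equal by construction apart from the sign. Centring within each label ties these values together, so they do not show on their own whether the replicate numbers mark pairs. With the replicate block edgeR called 0 members as labelled, and 19 higher, 6 lower and 2715 genes without the R2 libraries. A crossed pairing, chosen after seeing the data, gave 23 higher, 9 lower and 6135 genes. Counts below 10 in a library limit OAS1, EPSTI1, CXCL10, CXCL11, HERC5, XAF1, RSAD2 and IFI27.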

Other observations

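A second list of 44 interferon-stimulated genes, chosen with earlier results known, was tested in the same way, and its difference from the 47 members was not tested. Of its 43 tested genes, 8 rose without both R2 libraries (18.6%) where 12.4% of all genes did, 6 fell (14.0%) where 15.5% did, and 29 were not called, with a median log2 fold change of 0.02. DDX58, the RNA sensor RIG-I, had 11.6, 47.4 and 7.95 CPM in the controls and 31.9, 13.3 and 43.6 CPM in KO (edgeR adjusted p = 0.00152, log2 fold change 1.94, SE 0.24). LY6E, a membrane protein that limits virus fusion, had 39.4, 136 and 42.0 CPM in the controls and 101, 41.0 and 128 CPM in KO (1.48, SE 0.15, edgeR adjusted p = 0.000769). The sensor IFIH1 (0.86, edgeR adjusted p = 0.0245) and UBE2L6, the conjugating enzyme for ISG15 (0.65, edgeR adjusted p = 0.00843), rose as well. With UBE2L6, ISG15 and HERC5 higher and UBA7 not called, the enzymes of ISG15 conjugation did not all pass the test. GBP1, a guanylate-binding protein, fell, with 28.5, 15.4 and 19.7 CPM in the controls and 8.03, 17.3 and 9.33 CPM in KO (-1.48, SE 0.22, edgeR adjusted p = 0.00344). GBP2 fell as well (-1.23, SE 0.30, edgeR adjusted p = 0.0198), with 9.77, 7.46 and 6.14 CPM in the controls and 3.35, 3.59 and 3.47 CPM in KO. Unlike GBP1, it was lower in every KO library than in any control, as 6.86% of genes were. As labelled it was not called (edgeR adjusted p = 0.635).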
